A study of Homo sapiens with 18 samples.

Results

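The genes described here are the transcription factor NRF2, encoded by NFE2L2, its inhibitor KEAP1, and 7 genes that NRF2 is known to activate, namely GCLC, GCLM, TXNRD1, SRXN1, NQO1, PGD and OSGIN1. They were followed over 6 oxygen and drug conditions in MDA-MB-231 breast cancer cells. Members were chosen by name, through every probe set that the platform's gene table gives to one of these symbols alone. That made 20 of the 54613 probe sets and 9 of the 19775 genes on the array, and 15 of the 20 probe sets, at least 1 for each gene, were bright enough to be tested. The 5 probe sets that were not tested belonged to NFE2L2, GCLC, TXNRD1 and PGD, and 1 further probe set that names NFE2L2 together with another gene was not used. The values are log2 signals of single probe sets, so they are compared between conditions and not between genes. Where a gene had several probe sets, the one with the highest mean over the arrays leads and the others are given beside it.

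MDA-MB-231 is a human breast cancer cell line of the triple-negative type, and every sample came from this 1 line. The cells were kept for 16 hours in serum-free medium, and total RNA was profiled on Affymetrix U133 Plus 2.0 chips. In the order used here, H tax cells received 50 µM paclitaxel in hypoxia (1% oxygen), N tax cells received 50 µM paclitaxel in normoxia (20% oxygen), H epi cells received 10 µM epirubicin in hypoxia, N epi cells received 10 µM epirubicin in normoxia, H cells received no drug in hypoxia, and N cells received no drug in normoxia. Each condition had 2 arrays, 12 in all. A further 6 arrays carry a title and a source name that give different drugs, and they were assigned to no condition. The labels do not say whether the arrays of a condition came from separate cultures, while the study's methods call its replicates biological and its ratios are described as coming from independent experiments. The p-values set each change against the spread between the 2 arrays of a condition, as estimated over all 6 conditions together.

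NRF2 is the main transcription factor of the cellular response to oxidants and electrophiles. In unstressed cells KEAP1 holds NRF2 and presents it to a ubiquitin ligase built on CUL3 and RBX1, so the protein is made and destroyed continuously. When reactive compounds modify KEAP1, NRF2 builds up, pairs with small MAF proteins at antioxidant response elements, and raises enzymes that make glutathione, reduce thioredoxin and peroxiredoxins, supply NADPH and detoxify quinones. Paclitaxel is a taxane that stabilizes microtubules, and epirubicin is an anthracycline that intercalates into DNA and poisons topoisomerase II.

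The core of an antioxidant response element, TGACNNNGC, was searched on both strands of the promoter windows that RefSeq gives for the assembly GRCh38.p14, each 250 bases before to 50 bases after a gene's start. It is the only motif searched, and its first letters also begin the binding site of AP-1 factors. All 9 genes were matched, with 12 windows between them, and 5 windows of 4 genes (GCLM, TXNRD1, KEAP1 and PGD) held the motif, against 4687 of all 35116 windows (13.3%). Of these 4 genes, GCLM and TXNRD1 rose with paclitaxel, whereas KEAP1 and PGD were not called changed with it. One window of each is shown, at chr1:93909381-93909680 on the minus strand for GCLM, chr12:104215529-104215828 on the plus strand for TXNRD1, chr19:10502722-10503021 on the minus strand for KEAP1 and chr1:10398814-10399113 on the plus strand for PGD. They run 5′ to 3′ along the gene, and the capitals mark the motif, which appears as its reverse complement where the match lies on the opposite strand.
GCLM promoter: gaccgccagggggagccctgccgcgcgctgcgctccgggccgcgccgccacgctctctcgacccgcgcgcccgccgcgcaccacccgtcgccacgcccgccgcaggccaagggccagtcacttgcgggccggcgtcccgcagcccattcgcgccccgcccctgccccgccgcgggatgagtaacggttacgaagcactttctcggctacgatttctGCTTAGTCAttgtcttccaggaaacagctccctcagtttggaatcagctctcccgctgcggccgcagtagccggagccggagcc
TXNRD1 promoter: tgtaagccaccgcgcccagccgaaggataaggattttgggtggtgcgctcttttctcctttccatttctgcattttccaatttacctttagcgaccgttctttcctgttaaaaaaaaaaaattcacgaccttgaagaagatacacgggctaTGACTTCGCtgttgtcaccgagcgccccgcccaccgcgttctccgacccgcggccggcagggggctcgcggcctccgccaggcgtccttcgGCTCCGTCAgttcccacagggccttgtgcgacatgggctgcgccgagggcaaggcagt
KEAP1 promoter: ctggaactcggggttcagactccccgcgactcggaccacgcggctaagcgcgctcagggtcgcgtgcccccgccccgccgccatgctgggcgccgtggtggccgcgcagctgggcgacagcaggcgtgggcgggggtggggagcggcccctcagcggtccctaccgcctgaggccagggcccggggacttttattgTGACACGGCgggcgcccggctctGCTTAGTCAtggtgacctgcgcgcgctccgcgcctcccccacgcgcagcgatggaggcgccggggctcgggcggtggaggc
PGD promoter: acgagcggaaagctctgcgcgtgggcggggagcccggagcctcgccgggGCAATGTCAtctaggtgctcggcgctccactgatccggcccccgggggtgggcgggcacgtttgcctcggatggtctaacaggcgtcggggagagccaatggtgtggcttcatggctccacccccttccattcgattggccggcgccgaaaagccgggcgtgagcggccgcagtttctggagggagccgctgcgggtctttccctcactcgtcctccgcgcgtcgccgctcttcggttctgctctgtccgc
The GCLM match, TGACTAAGC on the opposite strand, covered positions -34 to -26 from the start, and the same letters stood at positions -31 to -23 of the KEAP1 window. The matches differed in the bases that the motif leaves free, with TGACTTCGC and TGACGGAGC in the TXNRD1 window and TGACATTGC in that of PGD. A second TXNRD1 window, at another start of the gene, held TGACAAAGC at positions -102 to -94 on the opposite strand. The windows of NFE2L2, GCLC, SRXN1, NQO1 and OSGIN1 did not hold these letters, and sequence farther from a start was not searched. Of these genes without the motif, SRXN1 and OSGIN1 also rose with paclitaxel, whereas NFE2L2, GCLC and NQO1 were not called with it on their leading probe sets. The match itself is a description of the sequence and no evidence of binding.

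On each array, between 41.4% and 42.6% of the probe sets exceeded the presence threshold of 3.14 on the log2 scale, and the 24151 probe sets that exceeded it on the 2 arrays of any condition entered the test. The arrays of a condition correlated at 0.976 (N epi) to 0.996 (N) over the 24151 probe sets tested. The line's own markers were found on every array, with 5 of 5 over the threshold, and the 3 immune markers measured stayed under the threshold on all 12. Of 6 luminal breast markers, CDH1 and PGR were under the threshold on all 12 arrays, at 2.25 and 2.24 or less, and ERBB2, GATA3 and EPCAM were over it on all 12, with a summed level of the list between 9.03 and 9.86. Of these, GATA3 averaged 5.31 in N epi and 8.67 in N cells and 5.65 in H epi and 8.0 in H cells, and the part of this in the changes with epirubicin was not tested. The remaining luminal marker, ESR1, averaged 2.83 in N epi and 2.31 in N cells, and its highest array, at 3.27, was over the threshold. Over it on all 12 arrays were also 2 of 4 hepatocyte markers (APOA1 and TTR, at 4.36 or less). APOA1 read the same value, 3.34, on every array, so its standing over the threshold is no sign of measured signal, and TTR came as low as 3.21. Also over the threshold on all 12 arrays were 1 of 4 keratinocyte markers (KRT10, at 12.04 or more) and 1 of 4 fibroblast markers (COL1A1, at 6.63 or more). The ACTB control probe sets differed between their 3′ and 5′ ends by -0.31 to -0.21 log2 units on the 4 epirubicin arrays and by -0.04 to 0.32 on the 8 others, and the part of this in the changes with epirubicin was not tested. Arrays measure each RNA relative to the rest of the sample, so fewer cells and less RNA per cell cannot be told apart. In the 4 comparisons of a drug with no drug, centring each array on the median of the 20536 probe sets present on all 12 arrays moved every log2 change upwards, by 0.05 in N tax against N, 0.03 in H tax against H, 0.28 in N epi against N and 0.33 in H epi against H.

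With paclitaxel, GCLM, TXNRD1, SRXN1 and OSGIN1 rose in normoxia and in hypoxia, between 1.94-fold and 6.83-fold. With epirubicin, NFE2L2, KEAP1, GCLC, GCLM and TXNRD1 were called lower on their leading probe sets in normoxia and in hypoxia, and SRXN1 was called lower in hypoxia, while its change in normoxia was not called and the difference between both effects was not called either. The fall of GCLM was seen on 1 of its 3 probe sets and was not called by limma on their mean (adjusted p = 0.101 in normoxia and 0.158 in hypoxia), and that of TXNRD1 was not called after median centring (adjusted p = 0.31 and 0.117). In normoxia the falls of NFE2L2, GCLC and TXNRD1 were each lost when either N array was left out. Hypoxia without drug moved none of the 9 genes past the test on the 12 arrays, though SRXN1 was called lower in 2 of 22 alternatives and GCLM in 1. NQO1 and PGD were not called on their leading probe sets in any of the 10 comparisons. Calls are from limma, in 1 fit of the 12 arrays, at a Benjamini-Hochberg adjusted p under 0.05 over the 24151 probe sets. With the 6 arrays of disputed label added by title, each of these calls was made again, and with the same arrays added by source name, none was, nor was any other of the probe sets called.

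**Figure D1:**
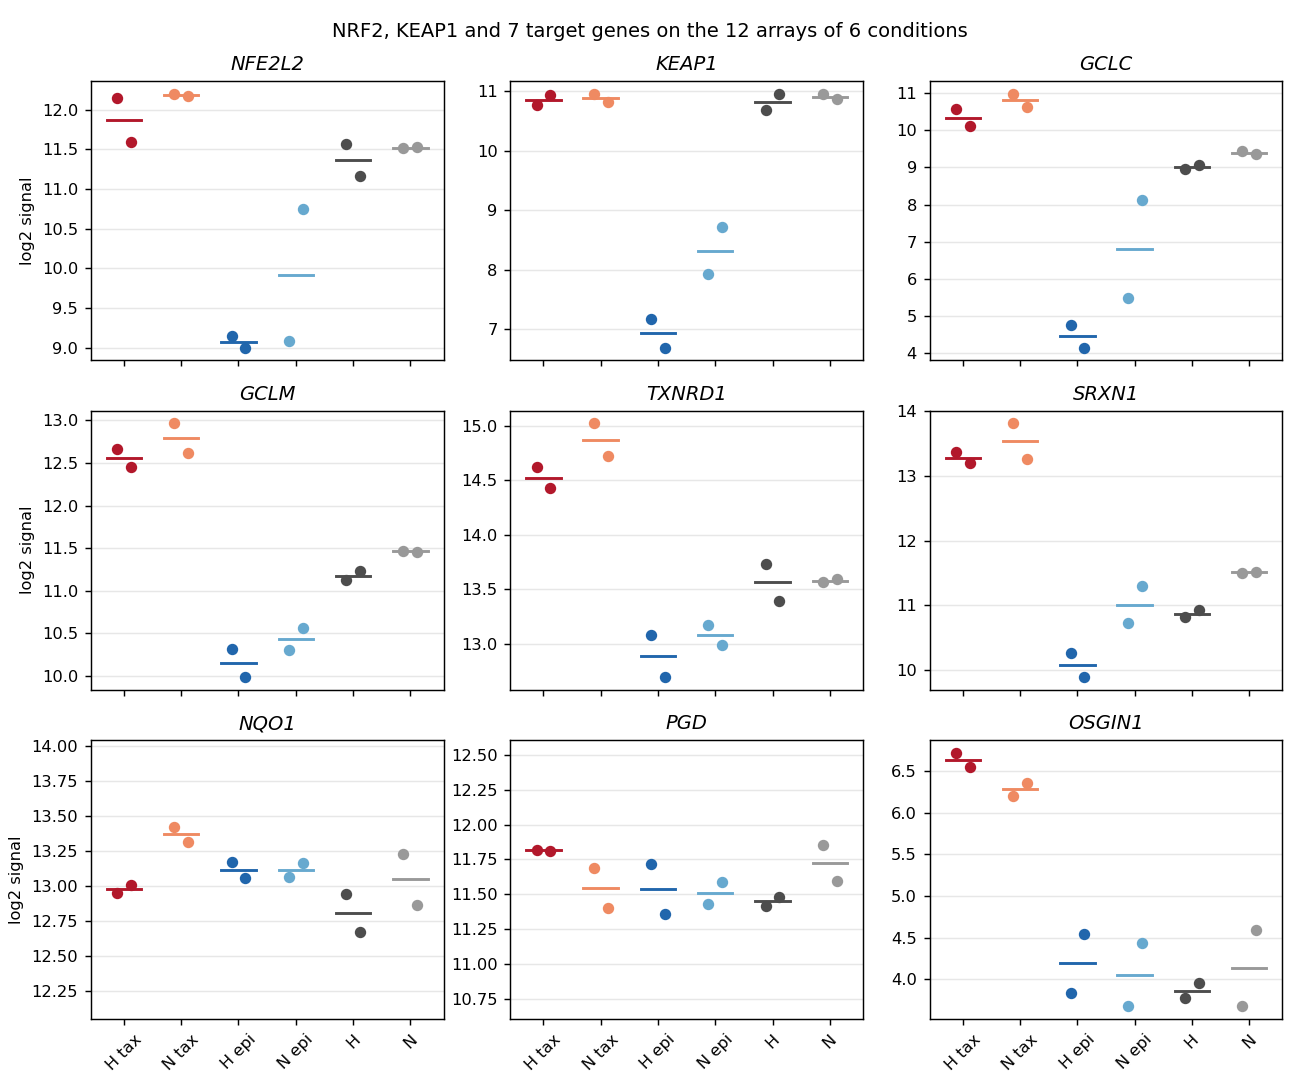
Log2 signal of the leading probe set of each of the 9 genes on the 12 arrays, 2 per condition, with a point for each array and a line at the condition's mean. The 4 paclitaxel arrays stand above the 4 arrays without drug for NFE2L2 (narrowly), GCLM, GCLC, TXNRD1, SRXN1 and OSGIN1, the 4 epirubicin arrays stand below them for NFE2L2, KEAP1, GCLC, GCLM and TXNRD1, and NQO1 and PGD move little; the scale differs between panels and none spans under 2 log2 units.

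Of the 9 genes, 4 were higher and 0 were lower in N tax cells than in N cells, while 9.49% of all probe sets tested were called higher and 13.8% lower. In H tax cells against H cells, 4 of 9 were again higher and 0 were lower, against 13.0% higher and 17.0% lower among all probe sets. The median log2 change of the 9 genes was 1.29 in normoxia and 0.96 in hypoxia, beside -0.01 and 0.00 over all probe sets tested. Normalizing the arrays together holds the median over all probe sets near 0, so here and below it is no independent background. The comparisons with one drug and the other share the arrays without drug, so they are not independent of each other. In N epi against N cells, 0 of 9 were higher and 5 were lower, against 24.7% higher and 27.8% lower among all probe sets. In H epi against H cells, 0 were higher and 6 were lower, against 30.9% and 32.5%. With so many probe sets called under epirubicin, the number of members that fell is to be read against that background.

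**Figure D2:**
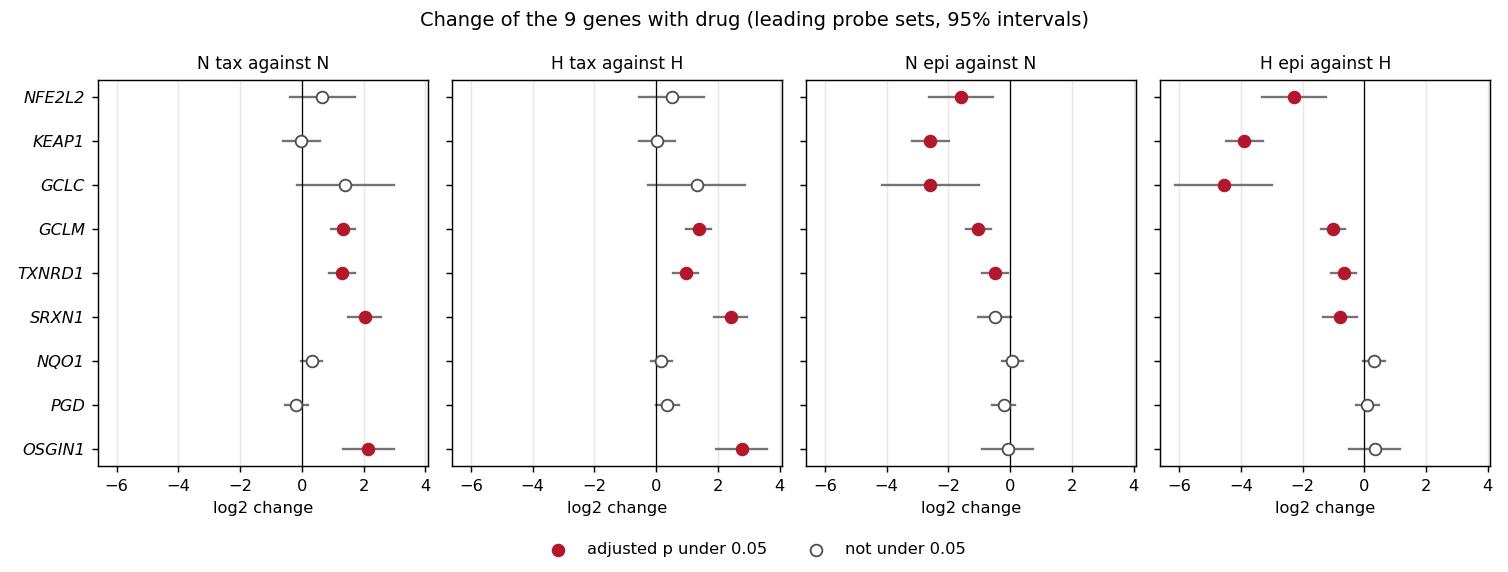
Log2 change with drug for the 9 genes on their leading probe sets in N tax against N, H tax against H, N epi against N and H epi against H cells, with 95% intervals from the fit of the 12 arrays; filled points have an adjusted p under 0.05. The 4 filled points of each paclitaxel panel lie above 0, and the 5 and 6 filled points of the epirubicin panels lie below it.

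NFE2L2, the gene of NRF2 itself, was the first of the regulators. Its log2 signal was 12.20 and 12.18 on the N tax arrays and 11.52 and 11.53 on the N arrays, and it was 12.15 and 11.59 on the H tax arrays and 11.57 and 11.16 on the H arrays. The paclitaxel arrays stood above those without drug in normoxia and, narrowly, in hypoxia, but the changes of 0.67 (SE 0.45, limma adjusted p = 0.345) and 0.50 (SE 0.45, adjusted p = 0.469) were not called. Without N epi replicate 1 or N epi replicate 2, which share in the fit's estimate of the spread, the change in normoxia was called (adjusted p = 0.0471 each). A second, dimmer probe set of NFE2L2 (1567013_at) averaged 5.42 in N tax and 4.45 in N cells and was called higher by 0.97 (SE 0.18, adjusted p = 0.00659), and in hypoxia it averaged 4.87 in H tax and 4.38 in H cells, a change of 0.49 that was not called (adjusted p = 0.0733).

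With epirubicin, NFE2L2 fell. Its signal was 9.08 and 10.75 on the N epi arrays against 11.52 and 11.53 on the N arrays, a change of -1.61 (3.05-fold lower, SE 0.45, limma adjusted p = 0.0174). It was 9.15 and 9.0 on the H epi arrays against 11.57 and 11.16 on the H arrays, a change of -2.29 (4.89-fold lower, SE 0.45, adjusted p = 0.0023). All 4 epirubicin arrays lay below the 4 without drug, and the N epi arrays lay 1.67 apart, the widest gap between the arrays of a condition for this gene. The call in normoxia was lost when either N array was left out, at adjusted p of 0.0696 without N replicate 1 and 0.0716 without N replicate 2, with changes of -1.61 and -1.60. The second probe set was lower in H epi than in H cells (-0.73, adjusted p = 0.00713) and, in N epi against N cells, changed by -0.30 without a call (adjusted p = 0.192).

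KEAP1, the adaptor that marks NRF2 for destruction, did not move with paclitaxel past the test and showed one of the widest falls with epirubicin. Its log2 signal was 7.93 and 8.71 on the N epi arrays and 10.95 and 10.86 on the N arrays, and the change was -2.58 (6.0-fold lower, SE 0.26, limma adjusted p = 0.000165). In hypoxia it was 7.18 and 6.69 on the H epi arrays and 10.69 and 10.95 on the H arrays, a change of -3.89 (14.8-fold lower, SE 0.26, adjusted p = 1.28e-05). The paclitaxel arrays, at 10.77 and 10.94 in H tax and 10.96 and 10.82 in N tax cells, overlapped those without drug, with changes of 0.04 in hypoxia and -0.02 in normoxia. The 95% intervals of these paclitaxel changes ran from -0.55 to 0.63 and from -0.61 to 0.57.

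GCLC and GCLM encode the catalytic and the modifier subunit of glutamate-cysteine ligase, which carries out the rate-limiting step of glutathione synthesis. GCLM rose with paclitaxel, with 12.97 and 12.61 on the N tax arrays against 11.47 and 11.46 on the N arrays, and with 12.66 and 12.45 on the H tax arrays against 11.13 and 11.23 on the H arrays. The 4 paclitaxel arrays were all above the 4 without drug, and the changes were 1.33 in normoxia (2.51-fold, SE 0.17, limma adjusted p = 0.00135) and 1.38 in hypoxia (2.60-fold, SE 0.17, adjusted p = 0.000758). The other 2 probe sets of GCLM (234986_at and 236140_at) also rose, by 1.27 and 0.97 in N tax against N and by 1.16 and 0.81 in H tax against H cells, with adjusted p from 0.00517 to 0.0432.

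With epirubicin the probe sets of GCLM disagreed. The leading one (203925_at) read 10.30 and 10.56 on the N epi and 10.32 and 9.99 on the H epi arrays, below every array without drug, and changed by -1.03 in normoxia (limma adjusted p = 0.00158) and by -1.02 in hypoxia (adjusted p = 0.000929). The other 2 changed by -0.24 and -0.07 in N epi against N cells and by -0.10 and 0.04 in H epi against H cells, and none of these was called, with adjusted p from 0.388 to 0.912. With the mean of the 3 probe sets in place of the leading one, neither fall of GCLM was called. By condition mean, the leading probe set ran in the order H epi, N epi, H, N, H tax and N tax from low to high, where H epi and N epi overlapped, as did H tax and N tax.

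GCLC spanned the widest range of the 9 genes, 6.34 log2 units between its lowest condition, H epi, and its highest, N tax. Its signal was 5.49 and 8.13 on the N epi arrays against 9.45 and 9.35 on the N arrays, a change of -2.59 (6.03-fold lower, SE 0.69, limma adjusted p = 0.0132). It was 4.76 and 4.16 on the H epi arrays against 8.97 and 9.06 on the H arrays, a change of -4.56 (23.5-fold lower, SE 0.69, adjusted p = 0.000537). All epirubicin arrays were below all those without drug, and N epi replicate 2 stood 2.64 above replicate 1. The fall in normoxia was not called without N replicate 1 (-2.54, adjusted p = 0.0613) or without N replicate 2 (-2.64, adjusted p = 0.0556). The second probe set (202922_at) was lower as well, with changes of -1.98 in N epi against N (adjusted p = 0.00497) and -3.35 in H epi against H cells (adjusted p = 0.000213).

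With paclitaxel the GCLC signal was 10.98 and 10.63 on the N tax arrays against 9.45 and 9.35 on the N arrays, and 10.56 and 10.11 on the H tax arrays against 8.97 and 9.06 on the H arrays. The arrays did not overlap in either pair, but the changes of 1.40 and 1.32 on this probe set were not called (SE 0.69 each, limma adjusted p = 0.186 and 0.194), and the spread they were tested against includes the wide N epi pair. With either N epi array left out, both changes were called (adjusted p = 0.00519 in normoxia and 0.00484 in hypoxia). On the second probe set, the rises of 1.40 (SE 0.42, adjusted p = 0.0449) and 1.37 (SE 0.42, adjusted p = 0.041) were called with all 12 arrays.

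**Figure D3:**
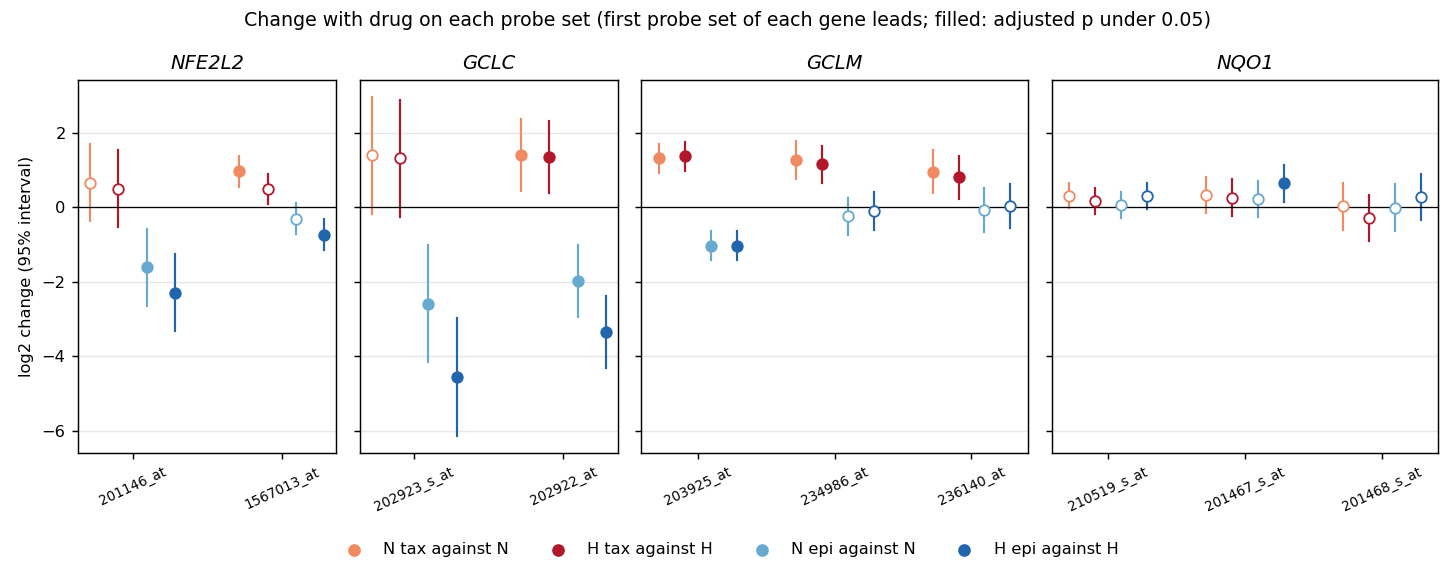
Log2 change with drug and its 95% interval for each tested probe set of NFE2L2, GCLC, GCLM and NQO1, the leading probe set first, in the 4 comparisons of a drug with no drug; filled points have an adjusted p under 0.05. The 3 GCLM probe sets rise together with paclitaxel while only the leading one falls with epirubicin, and both GCLC probe sets fall with epirubicin.

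TXNRD1 is the cytosolic thioredoxin reductase, which uses NADPH to keep thioredoxin reduced. It read 15.02 and 14.72 on the N tax arrays against 13.57 and 13.59 on the N arrays, a rise of 1.29 (2.44-fold, SE 0.18, limma adjusted p = 0.002). It read 14.62 and 14.43 on the H tax arrays against 13.74 and 13.39 on the H arrays, a rise of 0.96 (1.94-fold, SE 0.18, adjusted p = 0.00525). No paclitaxel array came down to the level of an array without drug, at either oxygen level.

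With epirubicin TXNRD1 moved little but downwards, at 13.17 and 12.99 on the N epi against 13.57 and 13.59 on the N arrays and at 13.08 and 12.70 on the H epi against 13.74 and 13.39 on the H arrays. The changes were -0.50 in normoxia (SE 0.18, limma adjusted p = 0.0471) and -0.68 in hypoxia (SE 0.18, adjusted p = 0.0108). Neither was called once each array was centred on its median. The call in normoxia was lost in 11 of 22 alternatives, among them those that left out any one N, N epi, N tax or H tax array (adjusted p from 0.0504 to 0.169), and the call in hypoxia was lost in 5 of 22, without H epi replicate 2 (adjusted p = 0.0694) and without H replicate 1 (adjusted p = 0.0801) among them.

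SRXN1 encodes sulfiredoxin, which repairs over-oxidized peroxiredoxins. Its signal was 13.82 and 13.26 on the N tax arrays against 11.50 and 11.52 on the N arrays, a rise of 2.03 (4.09-fold, SE 0.24, limma adjusted p = 0.000907). It was 13.36 and 13.20 on the H tax arrays against 10.82 and 10.92 on the H arrays, a rise of 2.41 (5.33-fold, SE 0.24, adjusted p = 0.000288). The 4 paclitaxel arrays lay well clear of the 8 others. On the N epi arrays it was 10.72 and 11.29, a change of -0.50 that was not called (adjusted p = 0.107) but was in 3 of 22 alternatives, one of them without N epi replicate 2 (-0.79, adjusted p = 0.0288). On the H epi arrays it was 10.26 and 9.89, a change of -0.80 (adjusted p = 0.0173). That call was lost in 6 of 22 alternatives, those without H epi replicate 2 (adjusted p = 0.103), H replicate 1 (0.0526) or H replicate 2 (0.0792) among them, and with median centring.

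OSGIN1, an oxidative stress-induced growth inhibitor, was near the presence threshold without drug, so its folds with paclitaxel rest on a low reference level. Its signal was 6.20 and 6.36 on the N tax arrays against 3.67 and 4.60 on the N arrays, a rise of 2.15 (4.4-fold, SE 0.36, limma adjusted p = 0.00433), and 6.72 and 6.55 on the H tax arrays against 3.77 and 3.96 on the H arrays, a rise of 2.77 (6.83-fold, SE 0.36, adjusted p = 0.000928). The N epi arrays, at 3.67 and 4.44, and the H epi arrays, at 3.84 and 4.55, overlapped those without drug, with changes of -0.08 in normoxia and 0.33 in hypoxia. The rise in normoxia was still called with either N array left out, at 1.68 without N replicate 1 (limma adjusted p = 0.0327) and 2.61 without N replicate 2 (adjusted p = 0.00741).

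NQO1, the quinone reductase that is often taken as a readout of NRF2, and PGD, an NADPH-producing enzyme of the pentose phosphate pathway, stayed within narrow ranges. The leading NQO1 probe set had condition means between 12.80 in H and 13.37 in N tax cells, a range of 0.57, and PGD had means between 11.45 in H and 11.82 in H tax cells, a range of 0.37. With paclitaxel NQO1 changed by 0.32 in normoxia (95% interval -0.02 to 0.66, limma adjusted p = 0.165) and by 0.17 in hypoxia (-0.17 to 0.52, adjusted p = 0.44). The intervals leave out a change of the size found for GCLM, whose lower bounds were 0.94 and 0.99. PGD changed by -0.18 in normoxia (-0.55 to 0.19) and by 0.37 in hypoxia (-0.00158 to 0.73, adjusted p = 0.127).

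The other 2 probe sets of NQO1 gave the same picture with paclitaxel, with changes from -0.28 to 0.33 and no call. With epirubicin, one of them (201467_s_at) averaged 12.12 in H epi and 11.47 in H cells and was called higher by 0.65 (SE 0.21, limma adjusted p = 0.0266), while the leading one changed by 0.31 (adjusted p = 0.1) and the last by 0.28 (adjusted p = 0.39). With median centring or with a trended, robust variance, the leading NQO1 probe set was called higher in H epi than in H cells too, and PGD was called higher with median centring.

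Between the oxygen levels 1 of the 9 genes was called, KEAP1 with epirubicin present. In H against N cells 0 of the 9 genes were called in either direction, while 4.41% of all probe sets were called higher and 5.11% lower. At an unadjusted p under 0.05 there was 1 gene of the 9, against 23.7% of all probe sets. It was SRXN1, at 10.82 and 10.92 on the H arrays against 11.50 and 11.52 on the N arrays, with a change of -0.64 (95% interval -1.18 to -0.10, limma adjusted p = 0.143). All 9 changes were negative, from -0.64 to -0.02, with a median of -0.27 beside -0.02 over all probe sets, and the arrays of 4 of the 9 did not overlap, against 61.3% of all probe sets. The intervals were wide for some, from -1.96 to 1.19 for GCLC. With the disputed arrays added by title, SRXN1 and GCLM were called lower (limma adjusted p = 0.0472 for GCLM), beside 20.1% of all probe sets called in either direction. With only the arrays of the comparison fitted, SRXN1 was called lower, beside 7.95% of all probe sets.

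With paclitaxel present, 0 of 9 were called between H tax and N tax cells, against 1.06% higher and 0.273% lower among all probe sets, and 1, NQO1, had an unadjusted p under 0.05 by limma, against 12.5% of all probe sets. NQO1 averaged 12.98 in H tax and 13.37 in N tax cells, a change of -0.39 (95% interval -0.73 to -0.05, adjusted p = 0.327). OSGIN1 and PGD had small positive values of 0.35 and 0.27, and the other 7 genes had negative ones.

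With epirubicin present, 1 of 9 was called between H epi and N epi cells, with 0 higher, against 0.381% higher and 1.13% lower among all probe sets. That gene was KEAP1, at 7.18 and 6.69 on the H epi arrays against 7.93 and 8.71 on the N epi arrays, a change of -1.39 (2.62-fold lower, SE 0.26, limma adjusted p = 0.0464). The arrays did not overlap, but 14 of 22 alternatives did not call it, among them those without H epi replicate 2 (-1.15, adjusted p = 0.162), without N epi replicate 2 (-0.998, adjusted p = 0.0993) or without any one array of another condition (adjusted p from 0.0868 to 0.101). GCLC changed by -2.35 (95% interval -3.92 to -0.77, adjusted p = 0.138) and SRXN1 by -0.93 (-1.47 to -0.39, adjusted p = 0.102), and neither was called. The sizes depended on the N epi array kept, and leaving out either one leaves 1 N epi array. Without N epi replicate 1 the changes were -1.78 for KEAP1, -3.67 for GCLC, -1.67 for NFE2L2 and -1.22 for SRXN1. Without N epi replicate 2 they were -0.998 for KEAP1, -1.03 for GCLC, -0.00245 for NFE2L2 and -0.64 for SRXN1.

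**Figure D4:**
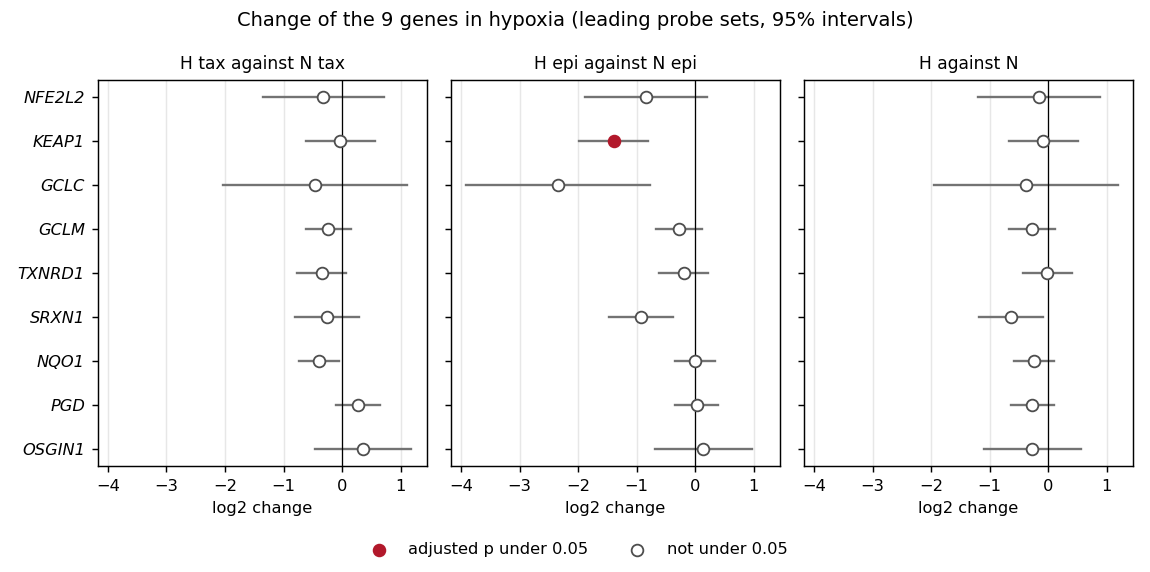
Log2 change in hypoxia against normoxia for the 9 genes on their leading probe sets, with paclitaxel in the left panel, epirubicin in the middle and no drug on the right, with 95% intervals from the fit of the 12 arrays. Only the KEAP1 point of the epirubicin panel is filled, at -1.39, which marks an adjusted p under 0.05.

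Whether a drug altered the response to hypoxia was tested as the difference between 2 oxygen effects. For paclitaxel, 0 of 9 genes were called, against 0.0331% of all probe sets with a higher and 0.0870% with a lower hypoxia effect than without drug. At an unadjusted p under 0.05 by limma, which 7.92% of all probe sets reached, there was 1 gene, PGD, with a difference of 0.54 (95% interval 0.02 to 1.06, adjusted p = 0.609). For epirubicin 0 of 9 were called as well, against 1.73% and 2.23% of all probe sets. Here KEAP1 had an unadjusted p under 0.05, as the only gene of the 9 beside 20.6% of all probe sets, with a difference of -1.30 (-2.14 to -0.47, limma adjusted p = 0.0913). The differences depended on the N epi array kept, and leaving out either one leaves 1 N epi array. Without N epi replicate 1 they were -1.69 for KEAP1, -1.52 for NFE2L2 and -3.28 for GCLC. Without N epi replicate 2 they were -0.91 for KEAP1, 0.15 for NFE2L2 and -0.645 for GCLC.

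Set directly against each other in normoxia, the drugs separated 7 of the 9 genes. In N epi against N tax cells, 0 were higher and 7 were lower, against 30.3% higher and 31.7% lower among all probe sets. The folds by which N epi cells were lower were 16.0 for GCLC, 5.93 for KEAP1, 5.80 for SRXN1, 5.12 for GCLM, 4.84 for NFE2L2, 4.67 for OSGIN1 and 3.45 for TXNRD1, with limma adjusted p from 2.4e-05 to 0.00264. The arrays did not overlap for these 7 genes, nor did they for 82.4% of all probe sets. The sizes for GCLC and NFE2L2 depended on the N epi array kept, with -2.68 and -1.44 without N epi replicate 1 and -5.32 and -3.11 without N epi replicate 2, against -4.00 and -2.28 with both. Fitting only the 4 arrays compared left 5 of the 7 genes called, without GCLC (limma adjusted p = 0.0535) and NFE2L2 (adjusted p = 0.065). NQO1 changed by -0.25 (95% interval -0.60 to 0.09, adjusted p = 0.171) and PGD by -0.03 (-0.40 to 0.33). The median over the 9 genes was -2.28, beside 0.00 over all probe sets.

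The rest of the pathway was followed in a list of 48 further genes, of which 43 were tested on their leading probe sets, and up to 3 called genes with the largest change in each direction are named for each comparison. In N tax against N cells 11 of the 43 rose and 2 fell by the same limma test and threshold, against 9.49% higher and 13.8% lower among all probe sets. In H tax against H cells 7 rose and 5 fell, against 13.0% and 17.0%. HMOX1, the heme oxygenase that opens the heme ring, averaged 9.72 in N tax and 7.28 in N cells and rose by 2.43 (SE 0.36, adjusted p = 0.00237), and it averaged 9.78 in H tax and 6.90 in H cells and rose by 2.88 (adjusted p = 0.000754). SQSTM1, the autophagy receptor p62 that binds KEAP1, rose by 1.82 in normoxia (adjusted p = 0.000423) and 2.03 in hypoxia (adjusted p = 0.000156). AKR1C1, an aldo-keto reductase, averaged 9.64 in N tax and 6.98 in N cells and rose by 2.66 (adjusted p = 0.0184). SLC7A11, which imports cystine for glutathione synthesis, averaged 12.08 in H tax and 10.61 in H cells and rose by 1.47 (adjusted p = 0.00597). At the other oxygen level, AKR1C1 averaged 8.83 in H tax and 7.07 in H cells, and SLC7A11 averaged 12.55 in N tax and 11.29 in N cells.

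Of the genes that paclitaxel lowered, CUL3, the scaffold of the ligase that KEAP1 serves, changed by -1.18 in normoxia (limma adjusted p = 0.00196) and by -1.08 in hypoxia (adjusted p = 0.002). FECH, which inserts iron into heme, changed by -0.49 in N tax against N cells (adjusted p = 0.0398), and ALDH3A1, an aldehyde dehydrogenase, by -2.09 in H tax against H cells (adjusted p = 0.00876), where DPP3, a peptidase that binds KEAP1, changed by -0.58 (adjusted p = 0.0289). Of 13 detoxification genes, 5 rose and 0 fell in N tax against N cells, and 2 rose and 1 fell in H tax against H cells, to be read against the same shares. The probes of AKR1C1 may also bind the near-identical transcripts of its family, so it is not a fully separate measurement. None of the 3 thioredoxin genes (TXN, PRDX1 and PRDX6) and none of the 5 tested genes of NADPH supply (TALDO1, TKT, ME1, IDH1 and PGLS) was called with paclitaxel at either oxygen level. Among all probe sets, 9.49% were called higher and 13.8% lower in normoxia, and 13.0% and 17.0% in hypoxia. Beside these shares, the lack of a call among so few genes says little about either group.

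With epirubicin, 9 of the 43 rose and 10 fell in N epi against N cells, below the 24.7% higher and 27.8% lower among all probe sets. In H epi against H cells 9 rose and 13 fell, below the 30.9% and 32.5% of all probe sets. Among the 10 regulators, 4 were lower and 2 higher in normoxia, and 6 were lower and 1 higher in hypoxia, beside those same shares. BACH1, the repressor that competes with NRF2 for its sites, averaged 3.94 in H epi and 8.49 in H cells, a change of -4.56 (SE 0.57, limma adjusted p = 0.000212), and in N epi against N cells it changed by -2.48 (adjusted p = 0.00722). MAFG, a small MAF partner of NRF2, changed by -2.53 in normoxia (adjusted p = 0.00596) and -3.13 in hypoxia (adjusted p = 0.00137). BTRC, an F-box protein that offers another route of NRF2 destruction, averaged 5.63 in N epi and 7.60 in N cells and 5.0 in H epi and 7.65 in H cells, and was called lower in both pairs.

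Of 7 tested glutathione genes outside the ligase, 3 rose and 0 fell in N epi against N cells, where 24.7% of all probe sets were called higher and 27.8% lower. In H epi against H cells 4 rose and 0 fell, where 30.9% were called higher and 32.5% lower, and the other members of the list were not called. GSR, which reduces oxidized glutathione, averaged 7.97 in N epi and 7.21 in N cells and rose by 0.76 (limma adjusted p = 0.00946), and in H epi against H cells it rose by 0.93 (adjusted p = 0.00244). RBX1, the RING subunit of the KEAP1 ligase, rose by 0.71 in normoxia (adjusted p = 0.00181), where PGLS, of the pentose phosphate pathway, rose by 0.64 (adjusted p = 0.0133). In H epi against H cells FECH rose by 1.04 (adjusted p = 0.000325) and GSTP1, a glutathione transferase, by 0.58 (adjusted p = 0.014). The median changes of the 43 genes were 0.21 in N tax against N and 0.05 in N epi against N cells, beside -0.01 and 0.00 over all probe sets tested.

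**Figure D5:**
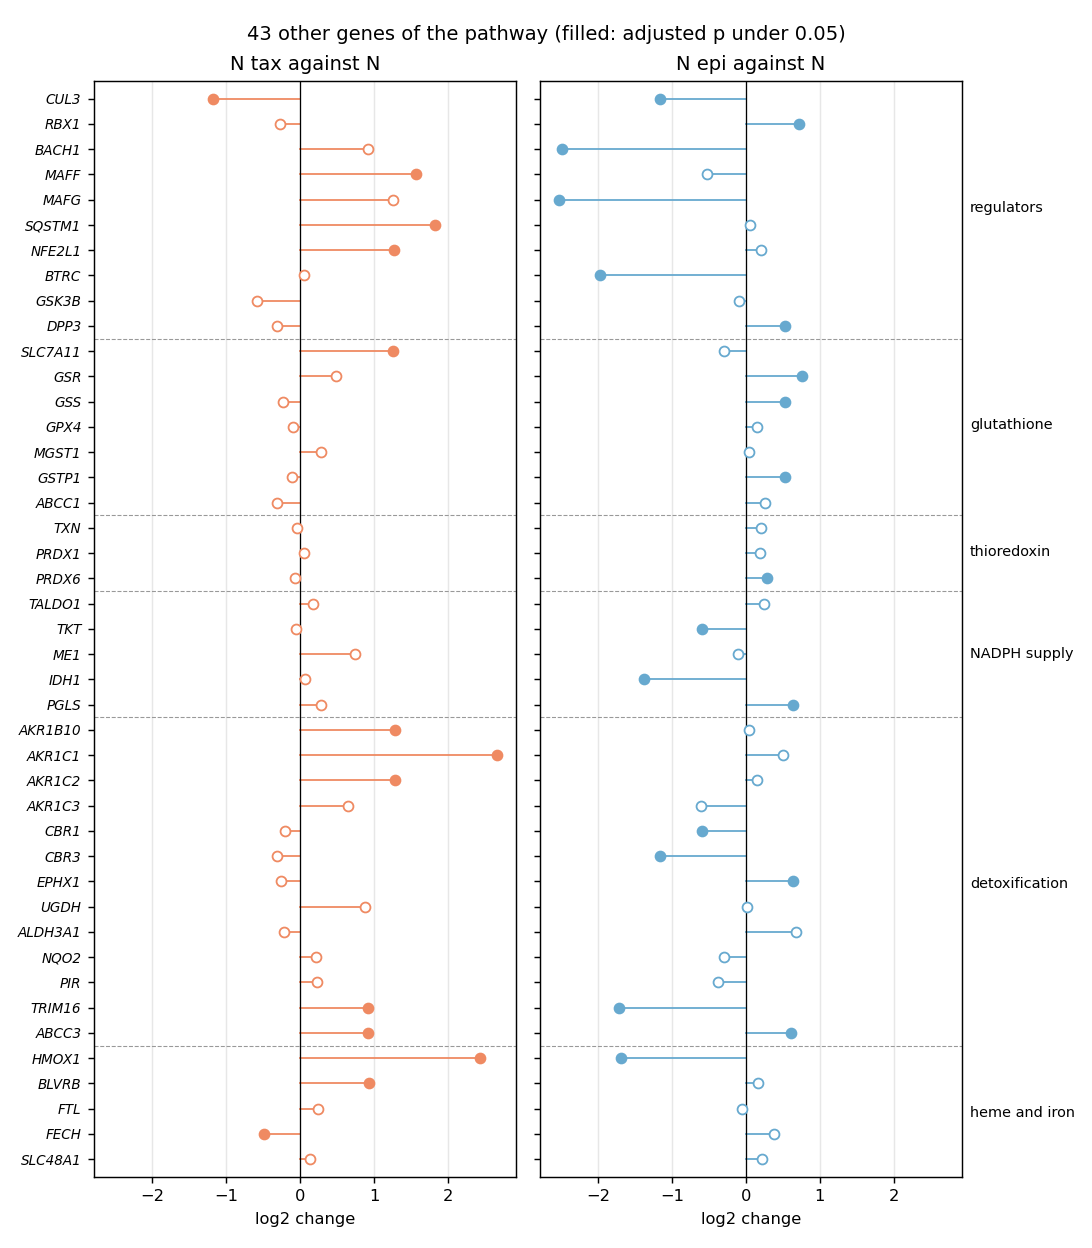
Log2 change of the 43 tested pathway genes outside the 9 members in N tax against N and N epi against N cells, grouped by role; filled points have an adjusted p under 0.05. HMOX1, AKR1C1 and SQSTM1 reach the highest values with paclitaxel (2.43, 2.66 and 1.82), and MAFG and BACH1 the lowest with epirubicin (-2.53 and -2.48).

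In N epi against N tax cells 22 of the 43 were lower and 8 higher, against 31.7% lower and 30.3% higher among all probe sets, with HMOX1 at -4.12, MAFG at -3.78 and BACH1 at -3.40 among the lower and RBX1 at 0.99, EPHX1, an epoxide hydrolase, at 0.90 and FECH at 0.87 among the higher. Between the oxygen levels 0 of the 43 were called by limma without drug, with paclitaxel or with epirubicin, and 4, 1 and 6 had an unadjusted p under 0.05 in those comparisons, against 23.7%, 12.5% and 16.5% of all probe sets. The tests of a drug's effect on the hypoxia response called 0 as well, with 3 genes under an unadjusted 0.05 for paclitaxel and 5 for epirubicin, against 7.92% and 20.6% of all probe sets. Among the listed genes that were not tested, GPX2 and ABCC2 stayed under the presence threshold, and the others were not analysed here.

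For the 3 members with the widest range, the genes with the most similar profile over the 6 condition means were found among 11195 others by the root mean square difference after each profile was centred on its own mean. GCLC was closest to ZNF622 (0.176), ITPRIP (0.201) and ZNF697 (0.219). KEAP1 was closest to CHD8 (0.0793), NCOA6 (0.0850) and RNF169 (0.10), and SRXN1 to TXNL4B (0.209), SYBU (0.216) and GADD45A (0.241). The likeness is a description over 6 conditions that share their arrays.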

How the data were processed

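RNA of MDA-MB-231 cells was measured on 18 Affymetrix U133 Plus 2.0 arrays. The authors normalized them with GC-RMA (version not given in the sources used here) and deposited log2 signals per probe set, which were used without further normalization. Their methods name AffyProbeMiner chip definitions, while the probe sets carry standard Affymetrix names. Groups came from titles and source names, and the 6 arrays on which these disagree entered only as alternatives. Control probe sets (62) were left out. Of the rest, 41091 had 1 symbol, 1801 had several and 11721 were not listed. Probe sets over 3.14, the log2 form of the study's threshold for presence, on the 2 arrays of any condition were tested.

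The 12 labelled arrays entered 1 linear model in limma 3.58.1 (R 4.3.3; tables read with data.table, version 1.17.8), with 6 residual and 2.28 prior degrees of freedom, two-sided tests and Benjamini-Hochberg adjustment. The 10 comparisons, the members and the gene lists were chosen with earlier results of these data known. All 9 members are named, with up to 3 called pathway genes per comparison and direction by size of change. The fit was tested on simulated data. Promoters were read with Python 3.11.15 and figures drawn with matplotlib 3.10.9. The number of arrays limits the precision.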

Additional observations from a re-analysis of the deposited data

Results flagged for a closer look

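The 6 arrays whose title and source name give different drugs entered no comparison above, and some of them showed members of this pathway more than 1 log2 unit above the highest of the 4 arrays without drug. The array titled N tax with the source name of N read 12.99 for GCLM, 11.05 for GCLC, 14.95 for TXNRD1, 13.73 for SRXN1 and 5.996 for OSGIN1. The array titled H tax with the source name of H read 12.51 for GCLM, 13.39 for SRXN1 and 6.45 for OSGIN1. By title these arrays are paclitaxel arrays and by source name they are arrays without drug. The other 4 disputed arrays had no value that high. The array titled N epi with the source name of N tax read 7.40 for KEAP1 and 5.53 for GCLC, below all 4 labelled paclitaxel arrays, and the array titled H epi with the source name of H tax read 6.97 and 5.59, below them as well. The array titled N with the source name of N epi read 11.01 for KEAP1 and 9.42 for GCLC, and the array titled H with the source name of H epi read 10.76 and 9.04, all above the 4 labelled epirubicin arrays. For the genes named, these values lay nearer to the labelled arrays of the drug, or of no drug, in the title than to those of the source name. The arrays were still left without a condition, since a condition was taken from the labels and never from measured values.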

How the results depend on the processing

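Each result was recomputed under 22 alternatives, and the cause of a change was not tested. With the 6 unassigned arrays added by source name, the count of the 9 genes called was 0 in N tax against N, H tax against H, N epi against N, H epi against H, N epi against N tax and H epi against N epi cells, and GCLM in N tax against N cells changed sign, at -0.00422. With them added by title, 2 genes (GCLM and SRXN1) were called in H against N cells, beside 20.1% of all probe sets. In H epi against N epi cells 2 were called by title (KEAP1 and SRXN1), beside 5.27% of all probe sets. Fitting only the arrays of the comparison called 1 gene in H against N, 0 in H epi against N epi and 3 in N epi against N cells. The shares of all probe sets called in these fits were 7.95%, 0% and 41.2%. No presence filter gave 0 in H epi against N epi and 2 in N epi against N cells, beside 0.868% and 18.6% of all probe sets. Median centring gave 1, KEAP1, for the difference between the hypoxia effects with epirubicin and without drug. With 1 array left out, the count ran from 0 to 4 in H epi against N epi (4 without N epi replicate 1), from 2 to 5 in N epi against N (2 without N replicate 1 or N replicate 2) and from 0 to 3 for that difference (3 without N epi replicate 1). Over all probe sets, the source-name alternative called 0 in each of the 10 comparisons, and under the others the percent called ran from 6.89 to 38.2 in N tax against N (23.3 as reported), 9.81 to 41.5 in H tax against H (13.0 higher and 17.0 lower), 18.6 to 65.2 in N epi against N (52.6), 25.9 to 71.6 in H epi against H (63.5), 23.9 to 71.9 in N epi against N tax (61.9) and 2.05 to 20.1 in H against N cells (9.51). It ran from 0.00414 to 5.84 in H tax against N tax (1.33), 0 to 12.5 in H epi against N epi (1.52), and for the hypoxia effect against that without drug from 0.0124 to 1.3 with paclitaxel (0.12) and 0.683 to 13.2 with epirubicin (3.96). The labels' replicate numbers were not shown to pair the arrays, since the deviations of same-numbered arrays correlated from -0.18 to 0.30 over 15 pairs of conditions and exceeded 0.1 in 3. A replicate block changed 1 of 90 gene results, KEAP1 in H epi against N epi cells, where it left 0 calls. With 2 arrays per condition, intervals are wide for GCLC and NFE2L2.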
